A study of Mus musculus with 2 samples.

Results

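The report describes 10 genes of the MHC class I presentation pathway in the wounded and unwounded mouse cornea, of 20198 genes in the deposited count table. They were chosen by name: *B2m*, the 4 heavy chain genes *H2-K1*, *H2-D1*, *H2-Q7* and *H2-T23*, the peptide transporter genes *Tap1* and *Tap2*, the bridging factor gene *Tapbp*, and the immunoproteasome subunit genes *Psmb8* and *Psmb9*. All 10 had a column in the table. Their counts were taken in each deposited cell cluster and each library.

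Single-cell RNA-seq was performed on dissociated corneas of male mice aged 6–8 weeks, whose strain is not given in the sources used here. The UW library pooled the corneas of 4 unwounded mice without treatment, and the W library those of 4 mice taken 24 h after the central epithelium had been marked with a trephine and scraped off. Both the separated epithelial layer and the tissue beneath it were digested and combined. The UW library held 16450 cells with a median of 22014 unique molecular identifiers (UMIs, each standing for 1 captured RNA molecule), and the W library 12417 cells with a median of 20290. A condition is thus 1 library of pooled animals, so differences between UW and W have no replicate check and no p-value is given, and wounding cannot be told apart from any other difference between the 2 libraries. Levels are counts per 1000000 UMIs (CPM) of the counts summed over the cells of a cluster and library, with exact Poisson 95% intervals that cover counting error only. A gene is called higher or lower where its CPM differed at least 2-fold.

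Nearly all nucleated cells show fragments of their own proteins on MHC class I molecules, which CD8 T cells inspect and which natural killer cells also read. Proteasomes cut the proteins, TAP1 and TAP2 carry the peptides into the endoplasmic reticulum, tapasin (*Tapbp*) holds the transporter and the empty class I molecule together, and the loaded molecule, a heavy chain paired with beta-2 microglobulin (*B2m*), moves to the surface. Interferons raise the genes of the pathway together, in part by exchanging the catalytic subunits of the proteasome for *Psmb8*, *Psmb9* and *Psmb10*. The cornea is known as an immune-privileged tissue with low class I levels on its cells.

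*B2m* lies on chromosome 2 (GRCm38, 122147686 to 122153083, plus strand), and the other 9 genes lie within 2.12 megabases of chromosome 17, between 33915899 and 36032855. Inside that region *Psmb9*, *Tap1*, *Psmb8* and *Tap2* fill 34.3 kilobases. *Psmb9* and *Tap1* run in opposite directions from one start region, and 275 bases of their 300-base promoter windows are the same DNA. RefSeq promoter windows (GRCm38.p6) were matched by symbol for 9 of the 10 genes, all but *Tap2*, and the 250 bases before the start were searched on both strands for short motifs. The stretches that the class I genes share are shown because they carry the known control elements of this gene family. In them, capitals mark from left to right the kappaB palindrome (GGGANTCCC), the core of the interferon-stimulated response element (TTTCNNTTC, the reverse complement of GAANNGAAA), the TGACG core and the inverted CCAAT box (ATTGG).
H2-K1, minus strand: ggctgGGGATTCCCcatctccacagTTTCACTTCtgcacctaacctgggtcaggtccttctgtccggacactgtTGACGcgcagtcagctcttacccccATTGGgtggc
H2-D1, plus strand: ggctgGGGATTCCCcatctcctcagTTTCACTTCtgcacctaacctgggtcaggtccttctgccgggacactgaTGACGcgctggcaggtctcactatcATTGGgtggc
H2-Q7, plus strand: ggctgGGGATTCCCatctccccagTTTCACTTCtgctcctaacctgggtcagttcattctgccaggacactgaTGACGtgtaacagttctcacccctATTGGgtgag
B2m, plus strand: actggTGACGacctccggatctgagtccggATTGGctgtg

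The *H2-K1* stretch is chr17:34000354-34000462, the *H2-D1* stretch chr17:35262919-35263027, the *H2-Q7* stretch chr17:35439018-35439124 and the *B2m* stretch chr2:122147604-122147643. The first 2 are 109 bases long and identical at 98 of them. TGACG and the inverted CCAAT box stand 20 bases apart in *H2-K1*, *H2-D1* and *B2m*, and 19 bases apart in *H2-Q7*. These 4 were the members in which both stood in this order with 18 to 21 bases between them, an arrangement found in 0.241% of the 27025 genes with a window. The kappaB palindrome together with the response core was found in *H2-K1*, *H2-D1* and *H2-Q7*, and in 0.037% of all genes. Alone, the palindrome was in 0.751% of genes, the response core in 7.3%, TGACG in 19.8% and CCAAT in 37.5%. These letters describe the windows, and a match is not shown to be a bound site. A member without a match can hold another form, as the *B2m* window reads gaaactgaaa upstream of the stretch shown.

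The deposited table of cells numbers 17 clusters and names none. The clusters 1 to 9 and 11 are called epithelial-like here from *Krt12*, *Krt5* and the other markers, although in clusters 5, 6, 7 and 9 no marker list stood above its mean over all cells. *Krt12* was 5299 CPM in UW cells of cluster 7 against 1554 CPM in the stromal cluster 0, and 1368 CPM in W cells of cluster 9, below W cells of clusters 13, 14 and 16 (2106 to 6048 CPM). Cluster 0 is stromal keratocyte-like (*Kera*, *Lum*, *Dcn*), and cluster 10 (*Penk*, *Myoc*) shared those markers but scored highest for corneal endothelial ones and is left unnamed. The W library held 1530 cells in clusters 13 to 16 and the UW library 15, so levels in these clusters are given for W alone. Clusters 14 and 15 are monocyte or macrophage-like, and cluster 16 is T-like. Cluster 13 (*Ccl3*, *Acod1*, with high *S100a8*) scored highest for neutrophil markers. It had a low depth and is called by number. The 2 libraries share 52 cell barcodes. The 12 clusters 0 to 11 had at least 50 cells in both libraries, with 5710692 to 60708276 UMIs per cluster and library, and carry the comparison.

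In each of these clusters, 2 to 9 of the 10 genes were at least 2-fold higher in the wounded cornea. Of the 120 pairs of a member and a cluster, 78 were at least 2-fold higher in W and 0 at least 2-fold lower, where all genes tested gave 6.44% of pairs higher and 7.53% lower. The ratio was above 1 in 114 of the 120 pairs, and its log2 had a median of 1.48. *H2-Q7* in all clusters and *Psmb9* in clusters 0 and 10 were under 10 CPM in UW and passed the filter on low values, a mean of 10 CPM, through W. Of the 106 pairs with at least 10 CPM in UW, 64 were called, against 4.37% of all such gene and cluster pairs. *B2m* and *H2-Q7* were called in 12 of 12 clusters, *H2-K1* in 11, *H2-D1* and *Psmb9* in 10, *Tap1* in 8, *Psmb8* in 7 and *H2-T23* in 5. *Tap2* was called in 2 clusters and *Tapbp* in 1. Under TMM or median-of-ratios scaling *H2-K1* in cluster 7 (0.88 and 0.85 on the log2 scale) and *Tap1* in cluster 1 fell under 2-fold, which left 10 and 7 clusters.

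The clusters differed in how many members were at least 2-fold higher, each count read beside the share of all genes that were. *H2-Q7* was called in each cluster and *Psmb9* in clusters 0 and 10 after passing the filter through W alone, so the counts are given first for members and genes with at least 10 CPM in UW. In stromal cluster 0 these were 7 of 8 members against 2.41% of genes, and in cluster 10 they were 6 of 8 against 2.24%. Among the epithelial-like clusters, those led by genes of the basal layer or of dividing cells had the higher counts. Cluster 3 (*Itgb4*, *Col17a1*, parts of the anchorage of basal cells) had 8 of 9 members against 6.15%, cluster 11 (*Mcm3*, *Mcm6*, of DNA replication) 8 against 5.76%, and cluster 8 (*Top2a*, *Mki67*, of dividing cells) 7 against 4.01%. Cluster 9 (*Wfdc18*, *Ccdc3*) had 6 against 4.47% and cluster 1 (*Pygl*, *Dapl1*) 6 against 4.6%. Cluster 4 (*Dsg1a*, *Muc15*) had 4 against 4.01%, cluster 5 (*Serpinb3a*, *Krt4*) 4 against 3.24% and cluster 7 (*Lce3a*, a gene of the cornified envelope, and *Krt23*) 4 against 8.9%. Cluster 2 (*Ly6g6c*, *Spink5*) had 3 of 9 against 3.66%, and cluster 6 (*Krt78*, *Psca*) had 1 of 9, *B2m*, against 5.6%. With the filter on the mean of both libraries, which adds *H2-Q7* throughout and *Psmb9* in clusters 0 and 10, all 10 members passed and the counts were 9 in cluster 0 (3.73% of genes), cluster 3 (9.19%) and cluster 11 (8.05%), and 8 in cluster 8 (5.42%) and cluster 10 (3.16%). They were 7 in cluster 1 (7.03%) and cluster 9 (5.98%), and 5 in cluster 4 (6.33%), cluster 5 (5.04%) and cluster 7 (13.1%). Cluster 2 had 4 (5.55%) and cluster 6 had 2 (8.43%). In the sum of the 10 epithelial-like clusters 3 of 9 members were called against 7.19% of genes with at least 10 CPM in UW, and 4 of 10 against 10.9% with the filter on the mean. That sum also moves with the share of cells that each cluster gives to a library. With equal weight for each of the 10 clusters the log2 ratios were 3.76 for *B2m*, 5.94 for *H2-Q7*, 1.57 for *Psmb9*, 1.48 for *H2-K1*, 1.13 for *H2-D1*, 0.90 for *Psmb8*, 0.85 for *Tap1*, 0.67 for *H2-T23*, 0.59 for *Tap2* and -0.20 for *Tapbp*.

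**Figure D1:**
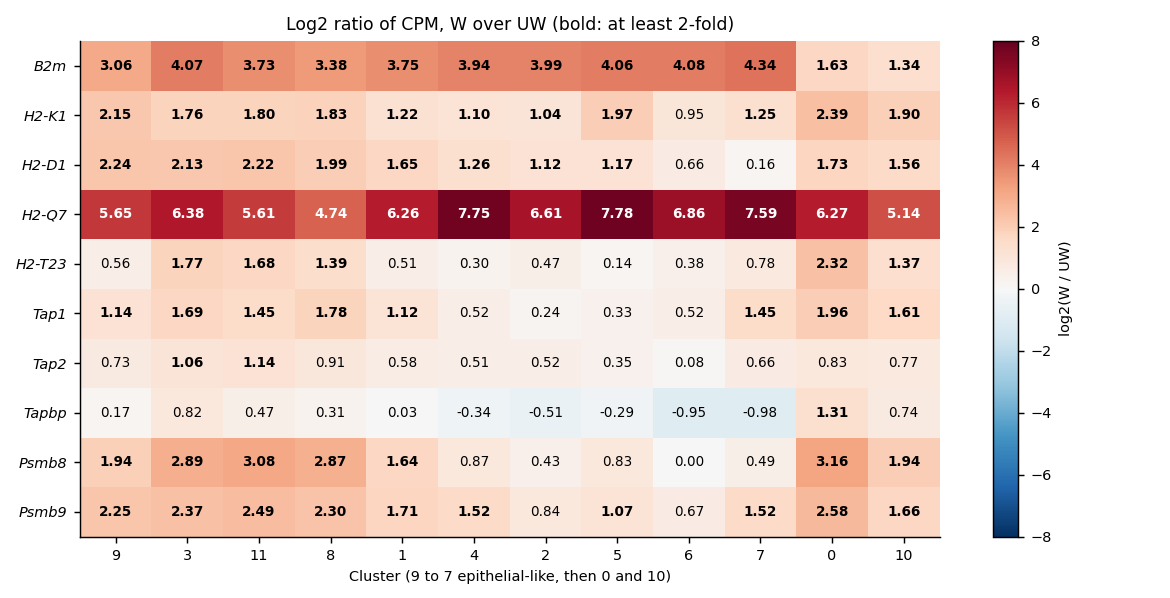
Log2 ratio of CPM in W over UW for the 10 members (rows) in the 12 clusters with at least 50 cells in both libraries (columns), on a colour scale from -8 to 8, with ratios of at least 2-fold in bold. *B2m* and *H2-Q7* are bold in all 12 columns, and the lowest values, down to -0.98, belong to *Tapbp* in clusters 6 and 7.

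*B2m*, the light chain that every class I molecule needs, set the unwounded epithelium apart from the stroma. In UW it was 618 CPM in cluster 0 and 546 CPM in cluster 10, but 32.4 to 128 CPM in the epithelial-like clusters. The highest of these was cluster 9 with 128 CPM, followed by cluster 8 with 66.0 and cluster 5 with 55.1, and the lowest were clusters 2 and 6 with 33.5 and 32.4. From cluster 5 downwards most neighbours in that order, except clusters 4 and 2, had overlapping counting intervals. In W the epithelial-like clusters lay between 533 CPM (cluster 2) and 1062 CPM (cluster 9), so the lowest of them in W was above the highest in UW. Within clusters the ratio of W to UW was 8.33 to 20.2. It was largest in cluster 7, where *B2m* went from 42.0 CPM (95% interval from counting of the log2 ratio 4.26 to 4.42, around 4.34) to 850.4 CPM. In the order of the 16 clusters of W, 4 of the 15 neighbours overlapped for *B2m* and *H2-K1*, but 14 for *Tap1* and *Tap2*, so the levels of the transporter genes can hardly be ranked. Cluster 0 reached 1909 CPM in W and cluster 10 reached 1381 CPM, ratios of 3.09 and 2.53. The wounded epithelium thereby stood at 38.8% of the *B2m* level of cluster 0 of its library, and the unwounded epithelium at 7.12%.

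The classical heavy chains *H2-K1* and *H2-D1*, which present peptides to CD8 T cells, were already well detected in the unwounded epithelium. *H2-K1* was 216 CPM (cluster 8) to 609 CPM (cluster 7) in UW and 629 CPM (cluster 2) to 1452 CPM (cluster 7) in W, with ratios of 1.93 in cluster 6 to 4.45 in cluster 9. Cluster 0 went from 333 to 1745 CPM, the largest ratio of the 12, with 5.25. *H2-D1* was 125 CPM (cluster 11) to 1125 CPM (cluster 7) in UW and 517 CPM (cluster 1) to 1258 CPM (cluster 7) in W. Its ratio was 4.72 in cluster 9, 4.66 in cluster 11 and 4.39 in cluster 3, and shrank to 1.58 in cluster 6 and 1.12 in cluster 7. Clusters 6 and 7, which had the most *H2-D1* in UW, had the least difference. TMM scaling took the log2 ratio of *H2-K1* in cluster 7 from 1.254 to 0.875. Its factor moves all genes of a cluster alike, so *H2-D1* there would then lie below its UW level.

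The mix of both heavy chains also differed. Heavy chains vary between strains, and with the strain not given, how well reads of *H2-K1*, *H2-D1* and *H2-Q7* matched the reference alleles is unknown. *H2-K1* gave 64.3% of the UMIs of the pair in UW cells of cluster 3 (Clopper-Pearson 95% interval 63.4 to 65.1) and 35.1% in cluster 7 (34.7 to 35.5). In W the same clusters stood at 58.2% and 53.6%, closer to each other. In cluster 0 the share went the other way than in cluster 3, from 48.3% in UW to 59.6% in W. Set against *B2m* in the same way, *B2m* gave 6.01% of the UMIs of *B2m*, *H2-K1* and *H2-D1* in the sum of the epithelial-like clusters in UW and 32.4% in W. In cluster 0 it gave 47.3% in UW and 39.5% in W. A share within a set of genes does not depend on how the libraries are scaled.

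**Figure D2:**
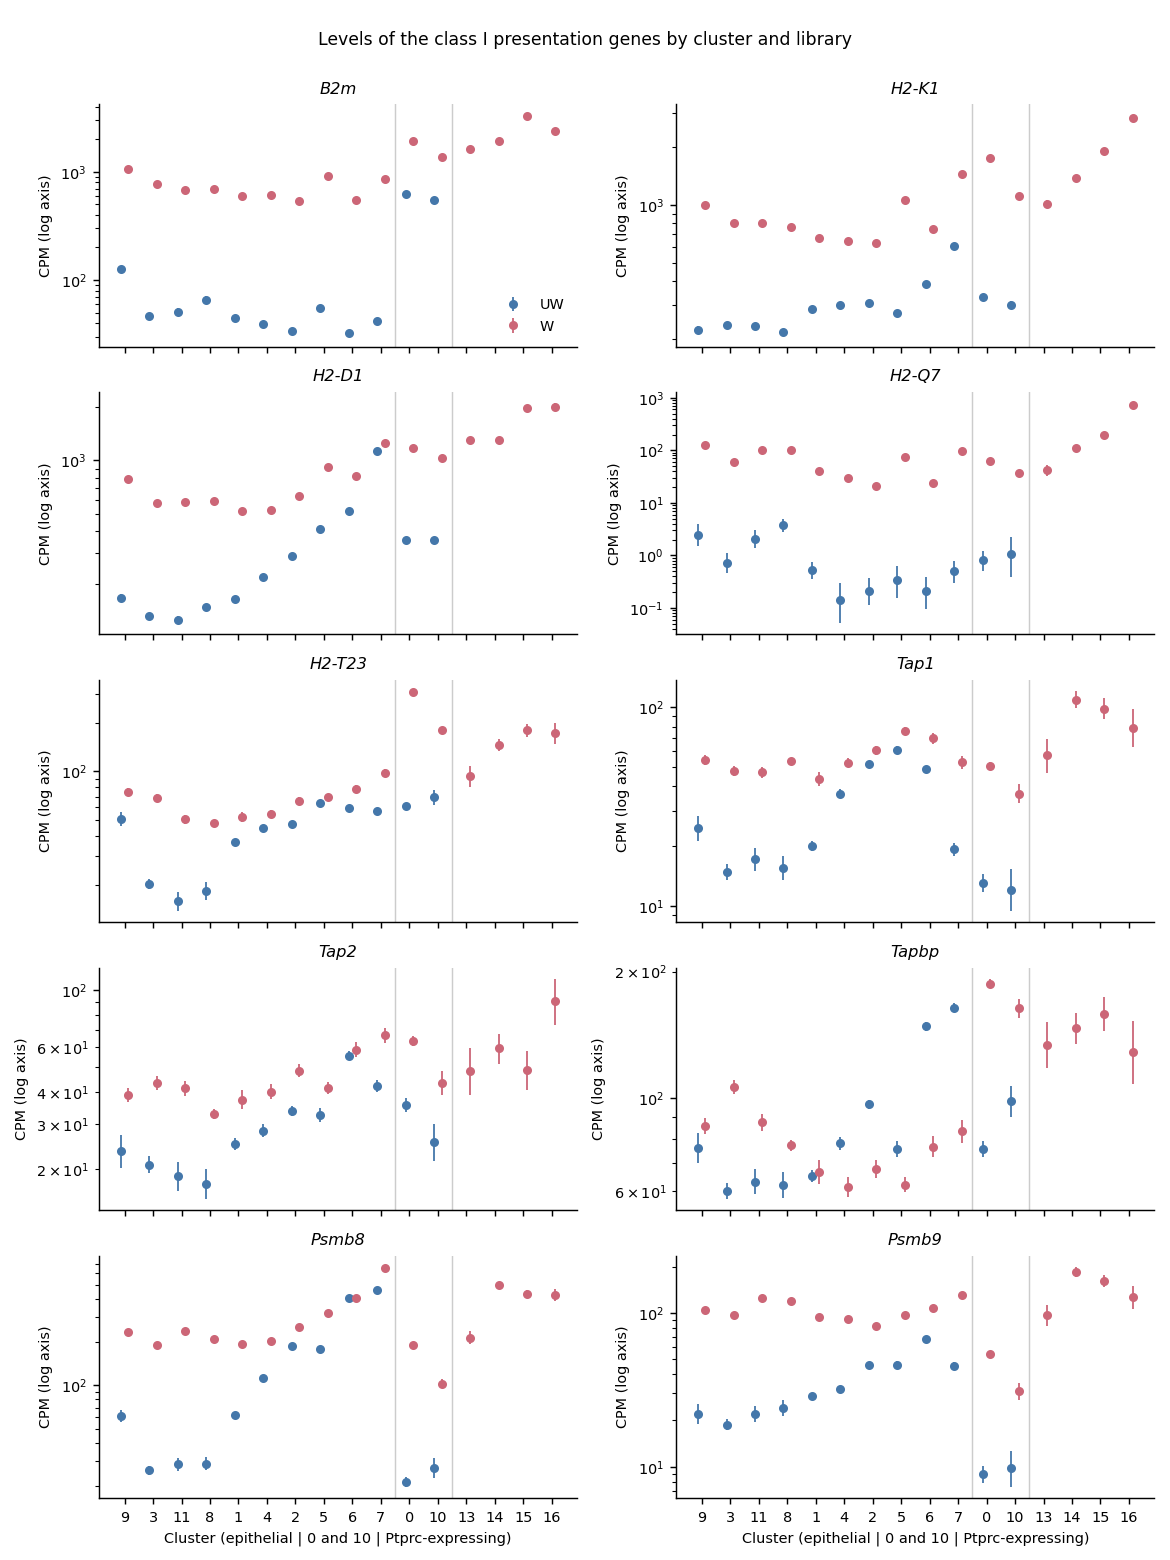
Levels of the 10 members in CPM (log axes) in the clusters with at least 50 cells in a library, in UW (blue) and W (red), with exact Poisson 95% intervals where they exceed the points. *H2-D1* and *Psmb8* climb towards cluster 7 in UW, W points lie above UW for *B2m* in all 12 clusters with both, and *H2-Q7* tops out at 732 CPM in cluster 16.

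*H2-Q7*, a non-classical heavy chain that is known for a lipid-anchored form, was close to absent from the unwounded cornea. It had 203 counts among the 332977270 UMIs of the UW epithelial-like clusters and 17289 among the 239014699 of W, or 0.610 against 72.3 CPM. The UW clusters ranged from 0.139 CPM (6 counts, cluster 4) to 3.75 CPM (48 counts, cluster 8), and all 11 neighbours in their order had overlapping intervals. In W the range was 20.9 CPM (cluster 2) to 125 CPM (cluster 9), and cluster 0 went from 0.809 to 62.5 CPM. The low UW counts leave the size of the ratio loose, as in cluster 5 with a log2 ratio of 7.78 (6.86 to 8.92), and in cluster 10 with 5.14 (4.00 to 6.60). Of the 100-base windows at the 3′ end of its transcripts, 2.9% also occur in another annotated gene, *H2-Q5*, so most reads of this length had a single annotated source. *H2-T23*, which gives the Qa-1 molecule that the NKG2A receptor of natural killer and T cells reads, had moderate levels throughout. It was 15.9 CPM (cluster 11) to 63.7 CPM (cluster 5) in the UW epithelium and 48.3 to 98.4 CPM in W. The ratio was at least 2-fold in clusters 3, 8 and 11 (3.41, 2.62 and 3.2), and 1.10 to 1.71 in the other epithelial-like clusters. In cluster 10 it was 2.59, and in cluster 0 it was 5.0, from 61.4 to 307 CPM, and that W level was the highest of the 16 clusters. Of its transcript-end windows 9.73% are shared with *Rab33b* or *Hook2*.

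Of the transporter and tapasin genes, *Tap1* was called in most clusters and the other 2 in few. *Tap1* was at least 2-fold higher in 8 clusters, with ratios of 3.88 in cluster 0 (13 to 50.6 CPM), 3.43 in cluster 8 (15.6 to 53.4 CPM) and 3.22 in cluster 3 (14.8 to 47.6 CPM). In clusters 2, 4, 5 and 6, which had 36.8 to 60.9 CPM in UW, the ratio was 1.18 to 1.43. *Tap2*, its partner, was called in clusters 3 and 11 (2.09 and 2.21), but both calls were lost with cells thinned to 5000 UMIs (0.92 and 0.999 on the log2 scale). The call in cluster 3 was also lost under 3 other settings, and clusters 0, 8 or 10 gained one under some. Its log2 ratio was 0.08 in cluster 6, with an interval of -0.03 to 0.19. *Tapbp* was higher in W in cluster 0, from 75.6 to 187 CPM, and its interval lay above 0 in 6 clusters in all (0, 3, 8, 9, 10 and 11). In 5 clusters (2, 4, 5, 6 and 7) the interval lay below 0. Cluster 7 went from 164 to 83.4 CPM and cluster 6 from 148 to 76.6 CPM, log2 ratios of -0.98 and -0.95 that stop just short of 2-fold. Scaled by TMM or by median-of-ratios factors, both passed it (-1.36 and -1.38 in cluster 7, -1.11 with either in cluster 6).

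*Psmb8* and *Psmb9* encode catalytic subunits of the immunoproteasome, which take the places of *Psmb5* and *Psmb6*. *Psmb8* was 25.7, 28.7 and 28.5 CPM in UW cells of clusters 3, 8 and 11, and 190, 210 and 240 CPM in W, ratios of 7.39, 7.32 and 8.44. In cluster 0 it went from 21.4 to 191 CPM, a ratio of 8.93. In cluster 6 it was 403 CPM in UW and 402 CPM in W, and in cluster 7 it was 463 and 653 CPM, a ratio of 1.41. The log2 interval in cluster 6, -0.04 to 0.04, is narrow, so counting depth does not limit this comparison. The scaling does, there and in cluster 7. TMM factors, which move all genes of a cluster alike, took *Tapbp* in cluster 6 from -0.954 to -1.114 on the log2 scale. *Psmb9* was called in 10 clusters, with ratios up to 6.0 in cluster 0 (8.96 to 53.8 CPM) and 5.62 in cluster 11 (22.1 to 124 CPM), and 1.79 and 1.59 in clusters 2 and 6.

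Within the pairs of exchanged subunits, *Psmb8* gave 12.9% of the UMIs of *Psmb8* and *Psmb5* in UW cells of cluster 3 (12.1 to 13.7) and 41.3% in W (40.3 to 42.2). In cluster 7 it gave 83.0% and 82.3%. Cluster 0 went from 13.1 to 45.5%, against 54.9 to 70.5% in clusters 13 to 16. *Psmb9* within *Psmb9* and *Psmb6* went from 10.09 to 25.6% in cluster 3, from 37.0 to 52.5% in cluster 7 and from 4.54 to 19.3% in cluster 0. The log2 ratio of *Psmb9* in cluster 7 went from 1.52 to 0.86 when cells with a UMI of any of 9 markers of other cells were left out, which kept 32 W cells there. *Psmb10*, the remaining immunosubunit, went from 18.8 to 31.3% of its pair with *Psmb7* in cluster 3 and from 18.1 to 42.6% in cluster 0, but from 44.6 to 38.5% in cluster 7. Unwounded cells of clusters 6 and 7 thus already held a *Psmb8* share (76.0 and 83.0%) above that of each of the clusters 13 to 16 after wounding.

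**Figure D3:**
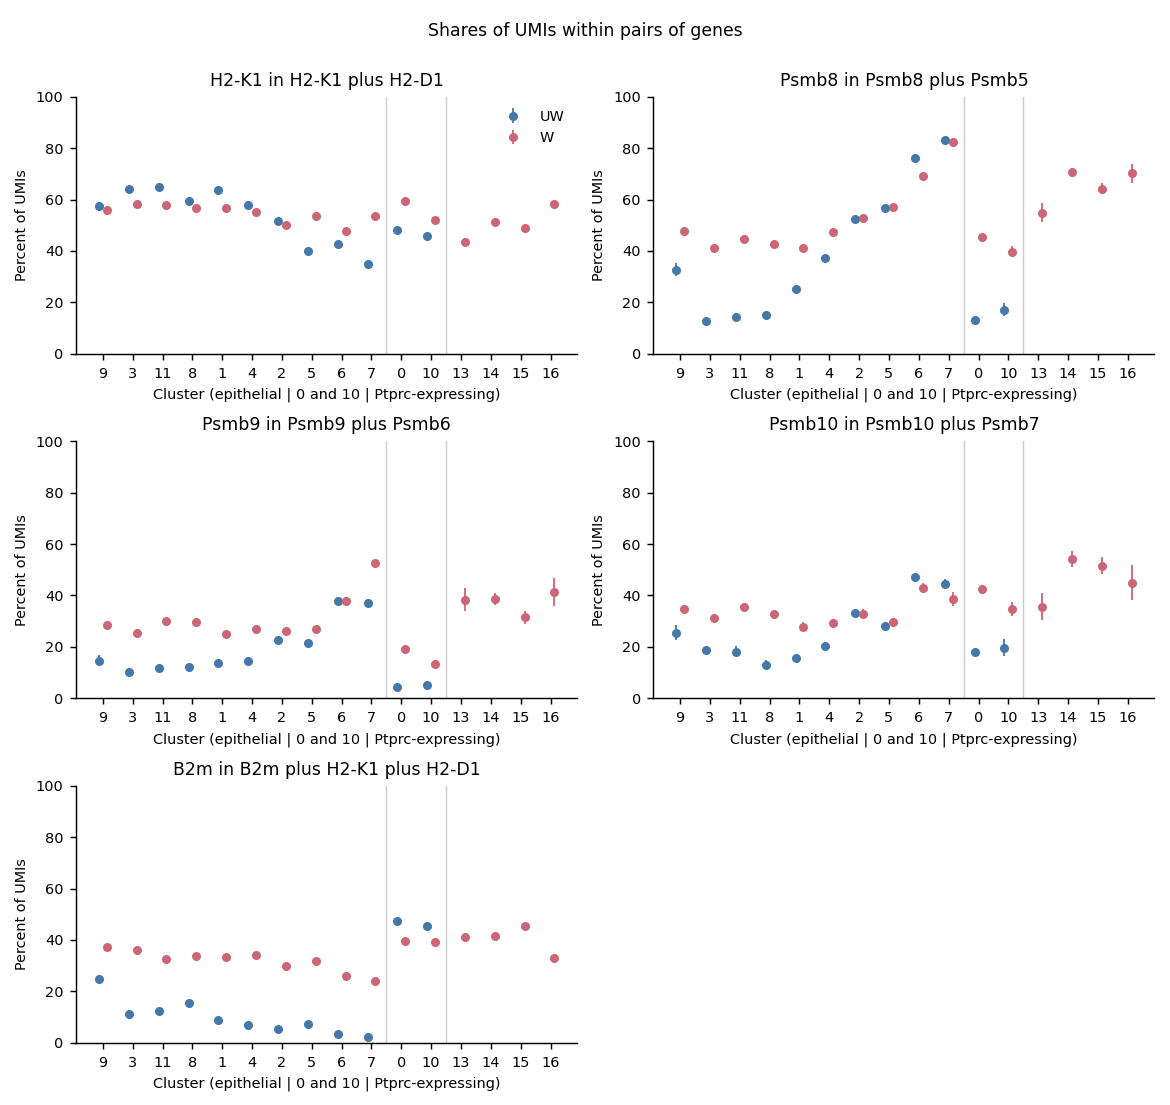
Percent of UMIs given by the first gene of each named pair or set, by cluster, in UW (blue) and W (red), with Clopper-Pearson 95% intervals. The *Psmb8* share in UW climbs from 12.9% in cluster 3 to 83.0% in cluster 7, W is far above UW in clusters 3, 8, 11 and 0, and in cluster 7 it is 82.3%.

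The unwounded epithelium therefore held a gradient in some members. From cluster 3 to cluster 7, *Psmb8* was 18.0-fold higher (95% interval from counting 16.8 to 19.3), *H2-D1* 8.61-fold, *H2-T23* 2.83-fold, *Tapbp* 2.73-fold, *H2-K1* 2.59-fold, *Psmb9* 2.41-fold and *Tap2* 2.03-fold. *Tap1* was 1.31-fold higher there, with its top in cluster 5 (60.9 CPM). *B2m* had no such step, with 46.4 CPM in cluster 3 and 42.0 CPM in cluster 7. In W the ratio of cluster 7 to cluster 3 was smaller for each of the 8 genes with a step in UW: 3.43 for *Psmb8*, 2.19 for *H2-D1*, 1.82 for *H2-K1*, and 0.785 for *Tapbp*, which was higher in cluster 3. The constitutive subunits ran the other way in both libraries, with *Psmb6* at 0.460 of its cluster 3 level in UW and 0.417 in W. *Irf7*, a transcription factor of the interferon response, was 7.69 CPM in cluster 3 and 247 CPM in cluster 7 in UW. *Ifitm3*, an interferon-induced antiviral gene, ran the other way, at 0.496 of its cluster 3 level in UW (53.5 to 26.5 CPM) and 0.457 in W. Cells were put in clusters by their expression, so these contrasts between clusters are descriptions, and the cells differed in complexity: in UW the medians per cell were 18682 UMIs and 3948 genes in cluster 3, and 23636 UMIs and 2645 genes in cluster 7.

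**Figure D4:**
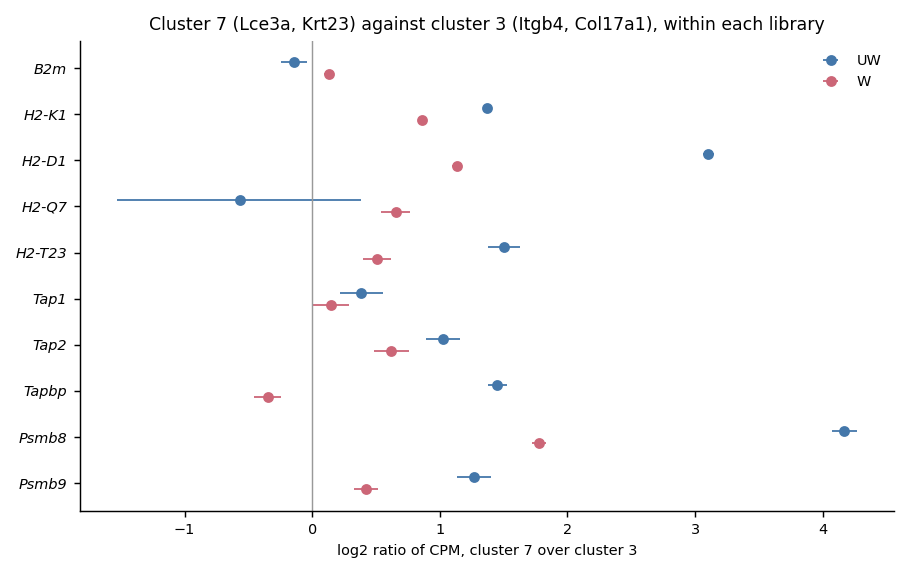
Log2 ratio of CPM in cluster 7 over cluster 3 for each member (rows), in UW (blue) and W (red), with exact 95% intervals from counting. In UW *Psmb8* stands at 4.17 and *H2-D1* at 3.11, in W at 1.78 and 1.13, and *Tapbp* changes sign from 1.45 to -0.35.

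How the members were distributed over single cells differed between clusters. Each cell was thinned to 5000 UMIs, which left out 367 UW and 176 W cells of the epithelial-like clusters. The summed UMIs of the 10 members then had a median of 3 per cell in UW and 13 in W in cluster 3, where 88.2% of W cells exceeded the 95th percentile of UW cells (4.27% of UW cells did). The medians were 7 and 25 in cluster 0, with 81.1% of W cells above that percentile, and 13 and 19 in cluster 7, with 38.8%. Cluster 7 of W had a long upper tail, with a 95th percentile of 66.4 UMIs against 22 in UW. There *H2-K1* had a mean of 3.13 and 7.92 UMIs per thinned cell but medians of 3 and 5, and for *H2-D1* 59 of 513 W cells exceeded the 95th percentile of UW cells (4.42% of UW cells did). *B2m* was found in 20.6% of thinned UW cells and 90.5% of thinned W cells of the epithelial-like clusters (58.0% and 99.4% unthinned). In cluster 0 it was found in 92.9% and 99.2%. For *H2-Q7* the epithelial shares were 0.350% and 24.4% thinned (1.42% and 56.2% unthinned). None of the cell types here is known to lack class I, so no cells could serve as its background. For *Dcn*, a stromal gene, the level in the epithelial-like sum was 0.403% of that in cluster 0 in UW and 0.881% in W.

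**Figure D5:**
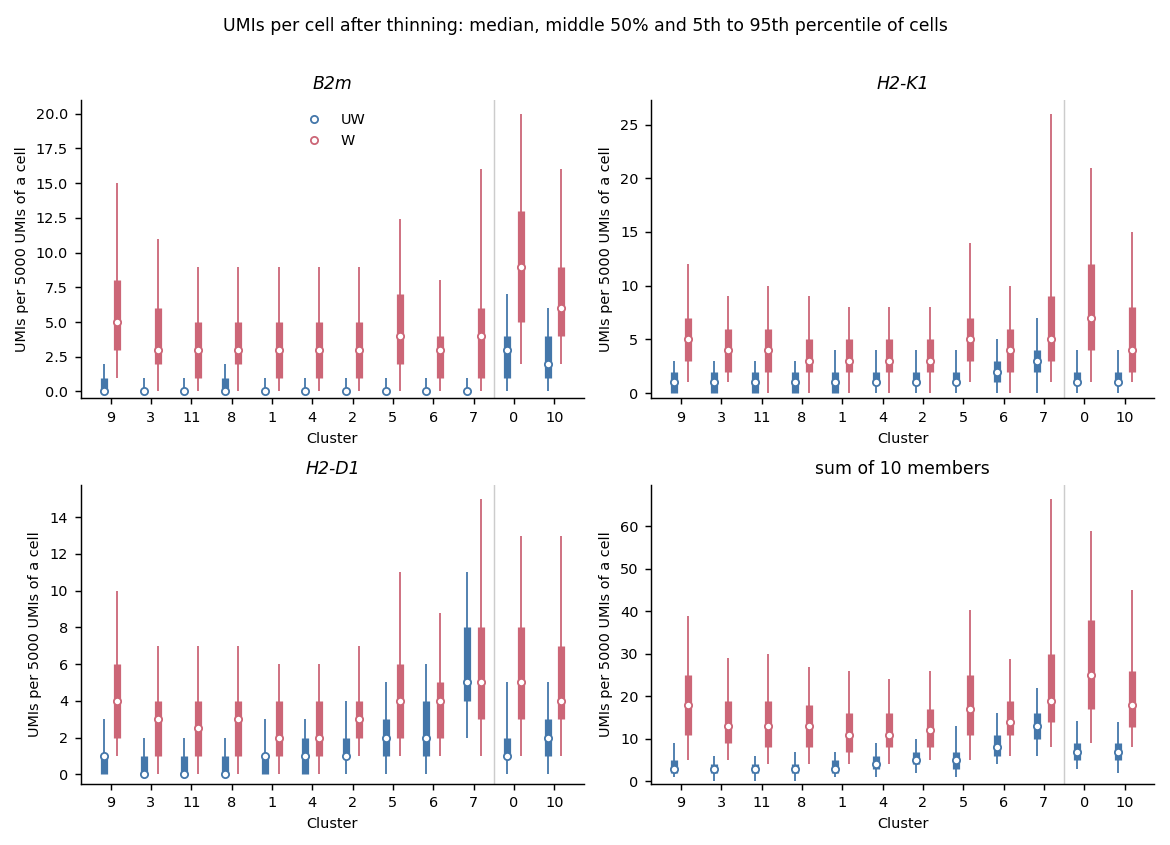
UMIs per cell after thinning to 5000 UMIs, for *B2m*, *H2-K1*, *H2-D1* and the sum of the 10 members, by cluster in UW (blue) and W (red). Open circles are medians, thick bars the middle 50% of cells and thin lines the 5th to 95th percentile. The median of the sum is 3 in UW and 13 in W in cluster 3, and 7 and 25 in cluster 0.

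Among the clusters 13 to 16, described in W, cluster 16 (*Cd3g*, *Gzma*) had the highest *H2-K1*, with 2817 CPM, and the highest *H2-Q7*, with 732 CPM, where the highest epithelial-like cluster had 125 CPM. *H2-D1* was 2021 CPM in cluster 16 and 1984 CPM in cluster 15, with overlapping intervals. *B2m* was highest in cluster 15 (*Pf4*, *Lyz2*), at 3240 CPM. *Tap1* was 109 CPM and *Psmb9* 185 CPM in cluster 14 (*H2-Aa*, *Cd74*), with intervals that overlapped those of cluster 15 for both, and cluster 13 had 42.0 CPM of *H2-Q7*. *Psmb8* was an exception, since cluster 7 of the epithelium (653 CPM) exceeded all 4 of these clusters (215 to 503 CPM). *Tapbp* and *H2-T23* were highest in cluster 0 of the 16 clusters in W (187 and 307 CPM), above the 4 clusters (129 to 159 and 93.7 to 179 CPM). A list of lymphocyte genes, among them receptors for class I and class I-like ligands, was counted in cluster 16 and in part elsewhere. Of that list *Gzmb*, a granzyme of killer cells, and *Trac*, the constant part of the T cell receptor, were highest in cluster 16, with 514 and 382 CPM, and *Klrb1c* (8.66 CPM) and *Klra8* lowest. There the co-receptor genes *Cd8a* and *Cd8b1* had 120 and 163 CPM, in 22.8 and 24.7% of 215 cells, and *Klrk1*, *Klrd1* and *Klrc1*, which encode NKG2D, CD94 and NKG2A, had 137, 87.6 and 78.9 CPM. NKG2D reads class I-like stress ligands rather than class I itself. *Klrd1* and *Klrk1* also had 89.8 and 41.0 CPM in cluster 14, in 18.6 and 17.8% of 354 cells. *Klra8*, of the Ly49 receptor family, had 2.89 CPM in cluster 16 and was higher in cluster 0, with 78.8 CPM in UW and 97.3 CPM in W. *Ifng*, the gene of the interferon that is the classical inducer of class I, had 124 counts in cluster 16 (119 CPM, in 19.5% of cells), 0 in clusters 13, 14 and 15, and 6 in the W epithelial-like sum.

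Other genes of the pathway were taken from lists chosen by function. None of the 3 constitutive catalytic subunits and 1 of the 11 other 20S subunits (*Psmb3*, 157 to 332 CPM) was at least 2-fold higher in the epithelial-like sum, against 10.9% of all genes. The list medians were 0.66 and 0.83 on the log2 scale, where all genes had 0.03. With equal weight per cluster *Psmb3* was at 0.998, just under 2-fold, and it was at least 2-fold higher in 5 of 10 clusters. After *Psmb3* the highest of the latter list was *Psmb2* (0.94), and the lowest were *Psma3* (0.37) and *Psma6* (0.43). The constitutive subunits ranged from *Psmb7* (0.58) to *Psmb6* (0.74), with *Psmb5* at 0.66. Of *Psmb10* and the proteasome activator genes *Psme1* and *Psme2*, 0 of 3 were called in the epithelial-like sum (0.94, 0.29 and 0.43), against 10.9% of all genes. With equal weight per cluster *Psmb10* was at 1.01, and it was at least 2-fold higher in 5 of 10. In cluster 0 *Psmb10* (19.1 to 80.3 CPM) and *Psme2* (69.3 to 169 CPM) were called, against 3.73% of all genes. Of 5 genes of peptide loading and trimming, 0 were called in the epithelial-like sum, against 10.9% of all genes. The chaperone genes *Calr* and *Pdia3* were at 0.75 and -0.30, *Tapbpl* at 0.37 and the trimming enzyme *Erap1* at 0.05. *Calr* was at least 2-fold higher in 4 of 10 clusters, and *Canx* and *Pdia3* at least 2-fold lower in 1 each. *Tapbpl* was at least 2-fold higher in 3 of 10 and in cluster 0, each with under 10 CPM in UW.

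The list of other heavy chains had 14 genes in the table, of which 2 passed the filter on low values in the epithelial-like sum. *H2-T22* was higher (34.7 to 98.2 CPM), and *Mr1*, which presents microbial vitamin metabolites, was lower (58.8 to 24.6 CPM). Within the 10 clusters *Mr1* was lower in each, at least 2-fold in 2. *H2-T22* and *H2-M3* were called in both cluster 0 (2.37 and 2.56) and cluster 10, with *H2-M3* at 9.28 CPM in UW cells of cluster 0, where it passed the filter through W. *H2-Q6*, the neighbour and near copy of *H2-Q7*, was below the filter, with 0.613 and 18.1 CPM. The regulators gave 1 of 11 called in that sum, near the 10.9% of all genes called there. It was *Rfxap* (12.3 to 36.8 CPM), a subunit of the factor that binds the X box of these promoters. The lowest were *Irf1* (-0.72) and *Irf2* (-0.47). *Irf1* was above its UW level in 1 of the 10 epithelial-like clusters, cluster 5 (0.22), and called higher in cluster 0 (41.9 to 93.6 CPM) and cluster 10 (57.6 to 145 CPM). In UW it was highest in cluster 7, at 693 CPM. *Nlrc5*, the transactivator of class I genes, was below the filter but had 51 counts in UW and 724 in W in the epithelial-like sum (0.153 and 3.03 CPM), and was at least 2-fold higher in 10 of 10 of these clusters. *Irf7* was 58.5 and 95 CPM in that sum and 11.6 and 342 CPM in cluster 0. With equal weight per cluster it was at 1.23, above its UW level in 10 of 10 clusters and at least 2-fold higher in 7. Among interferon and tumour necrosis factor genes and their receptors, *Ifnar2* (1.34) and *Tnfrsf1a* (1.15) were higher and *Tnf* (-1.25) lower in the epithelial-like sum, with *Ifngr2* at -0.91, of 6 that passed. By the same filter 10.9% of all genes were at least 2-fold higher there. *Ifnar2* passed through W, with 6.72 CPM in UW. These values depend on the mix of clusters. With equal weight per cluster *Ifnar2* was at 0.72 and *Tnf* at -0.75, and *Tnf* was above its UW level in 6 of 10 clusters, at least 2-fold in 3, and at least 2-fold below it in 1. *Ifngr1*, a receptor chain for interferon gamma, was at 1.07 with equal weight and at least 2-fold higher in 7 of 10.

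Interferon-induced genes, a list of 17 in the table, were also counted. Of those with at least 10 CPM in UW, 5 of 7 were at least 2-fold higher in the epithelial-like sum, against 7.19% of such genes, and 4 of 5 in cluster 0, against 2.41%, with medians of 1.39 and 2.17 on the log2 scale. By the filter on the mean 8 of 10 and 12 of 13 were, of which 3 and 8 had passed through W alone. The shares of all genes by that filter were 10.9% and 3.73%. The highest in the epithelium were *Ifitm3* (52.0 to 1596 CPM) and *Ifi44* (2.81 to 28.5 CPM), and the lowest *Gbp2* (0.27) and *Oasl1* (0.40). With equal weight per cluster *Ifitm3* fell from 4.94 to 3.45 on the log2 scale, below *Ifi44* (3.96) and *Igtp* (3.65). The latter genes had low UW means, of 2.395 and 1.828 CPM. In the sum *Ifi44* passed the filter through W, and *Igtp* did not pass it. *Gbp2* and *Oasl1* were then at 0.63 and 1.15, and each was at least 2-fold higher in 6 of 10 clusters. In cluster 0 *Gbp2* went from 4.43 to 133 CPM, and *Cxcl9*, a chemokine gene known as a target of interferon gamma, from 0 counts to 5405 (167 CPM), while the W epithelium had 0.983 CPM of it. Both genes passed the filter in cluster 0 through W.

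Genes listed as markers of other cells also differed between the libraries in these clusters. The summed level of 9 such markers (*Ptprc*, *Lyz2*, *Cd74*, *S100a8*, *S100a9*, *Tyrobp*, *Fcer1g*, *Cd3e* and *Nkg7*) was 4.63 to 157 CPM in the UW and 397 to 1082 CPM in the W epithelial-like clusters, with 8 of 9 above 0 counts in the UW sum and 9 in the W sum. In W most of it was *S100a9* and *S100a8* in each of these clusters, and in UW in all but clusters 2 and 6. *S100a9* was 151 CPM in UW cells of cluster 7, where *Ptprc* was 0.248 CPM. In W, *S100a9* and *S100a8* were 969 and 80.3 CPM in cluster 2, and 19963 and 13612 CPM in cluster 13. Which cells made these transcripts was not tested. In the W epithelial-like sum *Lyz2* stood at 0.0798% of its level in cluster 15, *Cd74* at 0.132% of cluster 14, *Tyrobp* at 0.319% of cluster 15 and *Ptprc* at 0.133% of cluster 16, but *S100a8* at 1.15% and *S100a9* at 2.71% of cluster 13. *B2m* stood at 22.9% of cluster 15 and *H2-Q7* at 9.88% of cluster 16. Without cells that held a UMI of *Ptprc*, *Tyrobp*, *Cd74* or *Fcer1g* the count of pairs called higher was again 78. Without cells that held a UMI of any of the 9, which kept 569 of the 8507 W epithelial-like cells, it was 78 of the 119 pairs that passed the filter, with 3 calls lost and 3 gained. Clusters 1, 6, 7 and 11 then kept 23 to 45 W cells, under the minimum of 50, and in the other 8 clusters 54 of 79 pairs were called, where all cells gave 55. *Tap2* in cluster 3 and *Psmb9* in cluster 7 fell below 2-fold, and *H2-Q7* in cluster 2 (0.187 and 18.6 CPM) fell under the filter on low values. The 3 ratios that moved past 2-fold were those of *H2-K1* in cluster 6, *H2-T23* in cluster 7 and *Tap2* in cluster 10.

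Over the 28 cluster and library units with at least 50 cells, the genes whose log2(CPM + 1) ran most like that of *B2m* among 11716 genes were *Bst2* and *Ifi27l2a* (Pearson r of 0.965 for both), *Lgals3bp* (0.931), *Ifitm3* (0.925) and *Chkb* (0.914). Those most like *Tap1* were *Psmb9* (0.899), *Psmb10* (0.874), *Psmb8* and *Arpc4* (0.854 for both) and *Slfn2* (0.853). The units share 2 libraries and differ in depth and cell type, so these values describe likeness only. Within the members the closest pair was *H2-K1* and *H2-D1* (0.932), and the least alike were *Tapbp* and *Psmb9* (0.259).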

How the data were processed

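The authors aligned the reads with Cell Ranger 3.1.0 to mm10 (the submitters' processing notes name mm9), filtered cells and removed doublets with DoubletFinder, and clustered in Seurat. The labels name the v3 kit and the paper V2. The deposited values are raw UMI counts per gene and cell, and a deposited table gives clusters and doublet calls with no unit of expression. Counts were summed per cluster and library and divided by total UMIs. Ratios have exact conditional binomial 95% intervals. Genes with a mean of at least 10 CPM and 20 counts in a cluster were the background. No test was made. The files hold fewer cells than the study states, and 469 cells named doublets in a deposited column were kept.

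The members, gene lists and thresholds were chosen with earlier results of these data known. All members are named. Of each list, the 2 highest and 2 lowest log2 ratios in the epithelial-like sum among genes of at least 10 CPM are named, of the lymphocyte list the 2 highest and 2 lowest levels in cluster 16, and the 5 genes most like *B2m* and *Tap1*. Other genes were named after their values were seen. In simulated sums of cluster 3 (7204 genes) all 200 genes changed 3-fold, or 100%, were called, and in cluster 10 (8210 genes) 99.5%. The simulated counts held counting error only, with no variation between animals, libraries or cells. They check the calculation and not the calls. Python 3.11.15, numpy 2.4.6, scipy 1.17.1, edgeR 4.0.16 and DESeq2 1.42.0 were used, with GENCODE M21 positions. Genes of the lists not in the table were not analysed here. The value of 1 regulator that the naming rule would include is not reported here.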

Additional observations from a re-analysis of the deposited data

Results flagged for a closer look

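With total UMIs as the scale, *Tapbp* was the member whose ratio of W to UW had opposite directions in different clusters, with counting intervals that excluded 0 on each side. Its log2 ratio was lowest in cluster 7, at -0.98, and highest in cluster 0, at 1.31. Each side rests on 1 library per condition, so the difference between the clusters was not tested, and counting intervals do not cover variation between animals. TMM scaling moves all genes of a cluster alike, as *H2-K1* in cluster 7 from 1.254 to 0.875 and *Tapbp* in cluster 6 from -0.954 to -1.114. It would put the intervals of *H2-D1* in cluster 7 (0.134 to 0.188) and *Psmb8* in cluster 6 (-0.044 to 0.041) below 0 as well.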

How the results depend on the processing

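With 1 library per condition, no replicate could be left out and no outlying sample looked for. No paired analysis was possible because each condition is 1 library and no test was made. The count of member and cluster pairs at least 2-fold higher in W was 78 as reported, 77 with TMM, with median-of-ratios factors and without mitochondrial and ribosomal genes in the total, and 78 with equal weight per cell, cells thinned to 5000 UMIs, the stricter filter on cells, doublets or cells with markers of other cells left out, and no filter on CPM. It was 54 of 85 pairs with a mean of at least 50 CPM (6.74% of all pairs) and 92 at a ratio of 1.5 (15.1% of all pairs higher and 20.5% lower). Without a filter on CPM 15.9% of all pairs were higher. With at least 10 CPM in UW, chosen after seeing the data, it was 64 of 106. The count at least 2-fold lower was 0 as reported, 2 with TMM, 2 with median-of-ratios factors, 1 with equal weight per cell and 2 at a ratio of 1.5, all of them *Tapbp* in clusters 6 and 7. Across scalings the calls that changed were those of *Tap1* in cluster 1 (0.99 to 1.12 on the log2 scale), *H2-K1* in cluster 7 (1.25, or 0.88 with TMM and 0.85 with median-of-ratios factors), *Tapbp*, and *Tap2* in clusters 0, 3 and 8. With thinned cells the calls of *Tap2* in clusters 3 (0.92) and 11 (from 1.142 to 0.999) were lost, and those of *Tap2* in cluster 8 (1.20) and *H2-K1* in cluster 6 (1.05) gained. Leaving out cells with a UMI of any of 9 markers of other cells, an alternative chosen after seeing the data that dropped 2230 UW and 9836 W cells, gave 78 higher and 0 lower of 119 pairs, and 54 of 79 in the 8 clusters that kept at least 50 cells. *Psmb9* in cluster 7 (from 1.52 to 0.86) and *Tap2* in cluster 3 (0.95) lost their calls, *H2-Q7* in cluster 2 fell under the filter, and *H2-K1* in cluster 6 (1.05), *H2-T23* in cluster 7 (1.24) and *Tap2* in cluster 10 (1.08) gained one. Leaving out the barcodes found in both libraries, also chosen after seeing the data, gave 78 and 0. The share of W epithelial-like cells with *B2m* was 90.5% at 5000 UMIs per cell and 70.1% at 2000. Fewer UMIs per cell give a lower share by construction.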

Other observations

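Cluster 17, left out of the comparison because it held 29 cells, all of the W library, was led by *Cxcl9*, *Acod1* and *Nlrp3* and is left unnamed. Its summed counts gave 2189 CPM of *B2m* (exact Poisson 95% interval 2066 to 2319), 1743 CPM of *H2-K1* and 1418 CPM of *H2-D1*. *H2-T23* was 294 CPM (250.3 to 344) there, next to 307 CPM in cluster 0 of W.

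The UW library held 7 cells in T-like cluster 16, with 26465 UMIs in all. They had 27 counts of *B2m* (1020.2 CPM, 672 to 1484) and 5 of *H2-Q7* (189 CPM, 61.3 to 441), where the 215 W cells of that cluster had 2363 and 732 CPM. *H2-Q7* was thus detected in UW cells of cluster 16 above the level of every UW cluster compared, of which the highest was 3.75 CPM. With 7 cells no comparison between the libraries was made.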
